A study of Mus musculus with 6 samples.

Results

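The laminin chains are a family of secreted proteins that build basement membranes, and RNA-seq of immortalized podocytes was used here to follow 9 of their genes, Lama1, Lama2, Lama3, Lama4, Lama5, Lamb1, Lamb2, Lamb3 and Lamc1, out of 57132 genes in the count table. The members were found by symbol once the version had been removed from each Ensembl identifier and the rest matched to GENCODE M21. All 9 were found, and all 9 passed the filter on low counts. Of 5 α chains, 3 β chains and 1 γ chain, 2 α chains, Lama1 and Lama2, were lower in AS than in WT podocytes and none was higher, whereas 19.6% of all 16263 genes tested were lower and 20.4% higher. The chains with the most RNA, Lamb1, Lamb2, Lama5 and Lamc1, were not called at an adjusted p under 0.05.

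A laminin is a trimer of 1 α, 1 β and 1 γ chain that are wound into a coiled coil inside the cell and secreted together. It is named by the numbers of its chains, so that laminin 521 holds α5, β2 and γ1. Laminin 521 is the main laminin of the mature glomerular basement membrane (GBM), whereas laminins 111 and 511 are found in the GBM during development. Both podocytes and endothelial cells of the glomerulus secrete laminin into the GBM. Loss of β2 causes congenital nephrotic syndrome, and laminin chains that belong to other membranes have been described in the GBM in Alport syndrome (AS).

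The 3 WT samples came from an immortalized podocyte line with the genotype WT-Col4a3+/+, and the 3 AS samples from a line with the genotype AS - Col4a3-/-, which lacks the α3 chain of type IV collagen. Both lines were untreated, were derived from male mice labelled as 8 weeks old, and carry the H-2kb-tsA58 transgene, an interferon-inducible, temperature-sensitive immortalizing gene that came from CBA/CaxC57BL/10 mice. Cells were grown at 33 °C with 20 U/mL interferon gamma and differentiated at 37 °C for 14 days according to the sample records, whereas the methods of the study give a shorter differentiation without interferon gamma and a lower dose during growth. Each genotype is 1 cell line, so that genotype and line cannot be told apart, and since nothing states that the 3 sets of a line were separate cultures, p-values measure the spread between these sets, which may be technical.

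The total count lay between 45417221 and 54290968 per sample, and the 9 laminin chains took between 0.163 and 0.196% of it. Values are given as CPM, the read count of a gene scaled by the TMM-adjusted size of its library, and AS was compared with WT by the two-sided quasi-likelihood test of edgeR, with p-values adjusted by Benjamini-Hochberg over the 16263 genes tested and SE standing for the standard error of a log2 fold change. Col4a3, the targeted gene, was at 938 to 1272 CPM in WT against 61.2 to 82.9 CPM in AS podocytes. WT replicate 1 stood apart within its group, since the chi-square of its counts against the other WT samples was 43.0 and 45.2 per degree of freedom, against 9.06 between WT replicates 2 and 3, and its mitochondrial share of 0.882% was the lowest of the 6. Of the podocyte markers, Nphs1 had 21 to 24 reads in the WT and 0 to 4 in the AS samples, while Synpo was at 803 ± 44.2 and 526 ± 30.8 CPM in WT and AS podocytes (SD, n = 3 each). Wt1 was at 20.6 ± 5.28 and 2.50 ± 0.928 CPM and Podxl at 14.1 ± 6.20 and 7.25 ± 0.781 CPM (SD, n = 3 each). Of the 8 podocyte markers tested, 5 were lower (Nphs1, Synpo, Podxl, Wt1 and Cd2ap) and 2 higher, among them Lmx1b, in AS podocytes, so the labelled cell type rests on part of its defining markers. The median log2 fold change was 0.0061 over all genes tested, 0.32 over the genes of chromosome 10, which holds Lama2 and Lama4, and between -0.10 and 0.02 over those of the chromosomes that hold the other 7 chains, with the chromosome medians taken over genes whose mean log2 CPM exceeded 2.

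The 9 genes covered a wide range of RNA levels. For comparison between genes, CPM were divided by the length of the longest coding transcript in kilobases (kb). Lamb1, which encodes the β1 chain, was the most abundant, at 149 ± 9.45 CPM per kb in WT and 158 ± 3.79 CPM per kb in AS podocytes (SD, n = 3 each), and ranked 331 and 307 among 13332 protein-coding genes. Lamb2 followed at 45.9 ± 3.59 and 51.4 ± 2.17 CPM per kb (SD, n = 3 each). Lamc1, at 32.8 ± 6.39 and 33.6 ± 1.96 CPM per kb, and Lama5, at 31.1 ± 6.99 and 36.2 ± 5.68 CPM per kb (SD, n = 3 each), overlapped with each other in both lines at this length, and the order of Lamb2, Lamc1 and Lama5 depended on the length used. Lama2 came next, at 5.21 ± 0.692 CPM per kb in WT and 1.26 ± 0.136 CPM per kb in AS podocytes (SD, n = 3 each). Lama1 was at 0.967 ± 0.257 and 0.263 ± 0.0663 CPM per kb (SD, n = 3 each). Lama3, Lamb3 and Lama4 had means at or below 0.109 CPM per kb in both lines, and the ranges of Lama3 and Lamb3 overlapped. How the reads were spread along each transcript cannot be read from counts per gene, so a level per kb assumes even coverage.

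**Figure D1:**
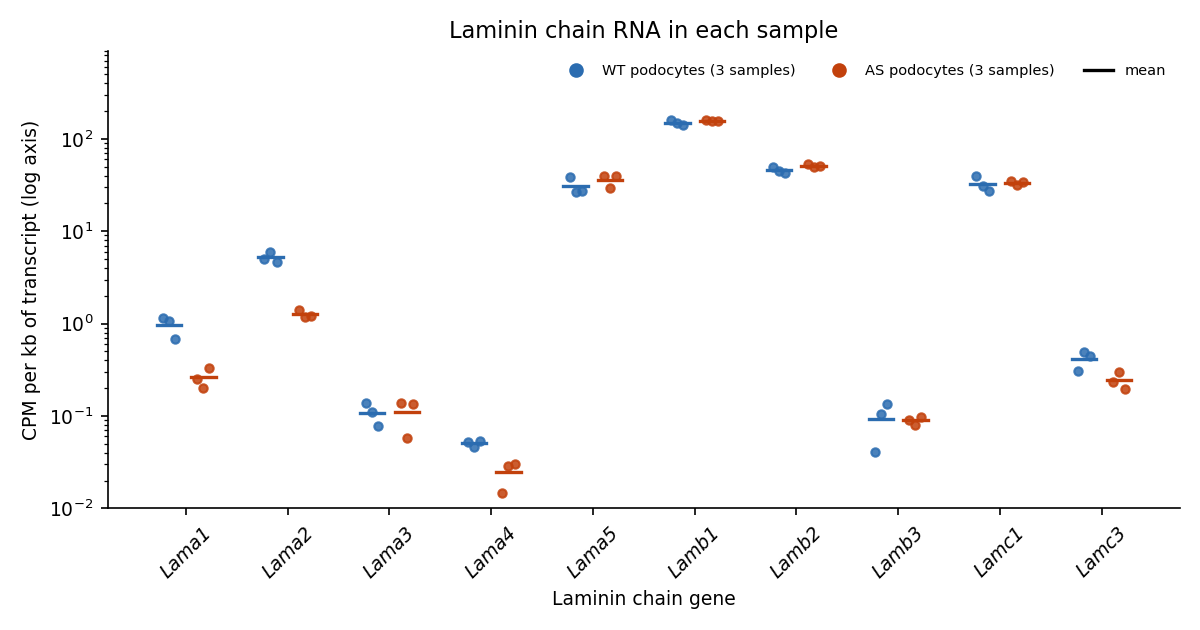
CPM per kb of transcript (log axis) of 10 laminin chain genes in each of 3 WT (blue) and 3 AS (orange) samples, with a bar at the mean. Lamb1, Lamb2, Lama5 and Lamc1 sit between 26.6 and 162 CPM per kb in all samples, whereas Lama1 and Lama2 have AS points below every WT point.

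Lama2 encodes α2, the α chain of laminins 211 and 221, known from muscle, nerve and the mesangial matrix of the glomerulus. Its CPM was 47.8, 57.6 and 44.9 for WT replicates 1 to 3 against 13.7, 11.3 and 11.5 for AS replicates 1 to 3. The lines did not overlap, and the highest AS value was less than the lowest WT value by more than the spread within either line. The log2 fold change was -2.05 (SE = 0.11 and adjusted p = 1.24e-06 in edgeR), a mean 4.12-fold lower in AS podocytes, against 6.59% of all genes tested that were lower by more than 2-fold with an adjusted p under 0.05. The 6 fits without 1 sample gave values from -2.14 to -1.94, and with the median of its chromosome removed it was -2.35. The antisense gene Gm48084 shares 631 exon bases with Lama2 and had at most 7 reads in a sample. In bulk RNA, fewer cells that express a gene and less RNA per cell cannot be told apart.

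Lama1 encodes α1, the α chain of laminin 111, which is typical of embryonic basement membranes. It was at 10.9, 10.3 and 6.42 CPM for WT replicates 1 to 3 against 2.42, 1.93 and 3.18 CPM for AS replicates 1 to 3, with no overlap between the lines. The log2 fold change was -1.87 (SE = 0.24 and adjusted p = 0.000294 in edgeR), a mean 3.67-fold lower in AS podocytes. The Lama1 RNA of WT replicate 3 was the lowest of its line, and without that sample the log2 fold change was -2.08. Among markers of mesangial cells, Pdgfrb, which encodes a receptor for platelet-derived growth factor, was also lower in AS podocytes, at 253 ± 14.3 and 116 ± 0.362 CPM (SD, n = 3 each) and by -1.12 on the log2 scale (adjusted p = 8.71e-07 in edgeR). It was the 1 of 5 mesangial markers that passed the test, and Des, a defining marker, stayed between 0.237 and 1.62 CPM in the 6 samples. The 5 together summed to between 5751 and 7903 CPM in WT against between 6419 and 7545 CPM in AS podocytes, nearly all of it from Acta2, which encodes smooth muscle actin and was not called (5503 to 7648 against 6296 to 7421 CPM). Without Acta2 the other 4 summed to between 248 and 276 CPM in WT against between 123 and 125 CPM in AS podocytes, most of it from Pdgfrb. The part of such cells in the lower Lama1 and Lama2 was not tested.

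Lama5 encodes α5, the α chain of the mature GBM. Its CPM was 446, 302 and 314 for WT replicates 1 to 3 against 447, 338 and 452 for AS replicates 1 to 3. WT replicate 1 was as high as AS replicates 1 and 3, AS replicate 2 lay near the other WT samples, and the lines overlapped. The log2 fold change was 0.22 (SE = 0.16 and adjusted p = 0.297 in edgeR), with a 95% interval from -0.13 to 0.57. Without WT replicate 1 it was 0.42 and was called (adjusted p = 0.00941 in edgeR), and it passed as well without a filter on low counts (0.22, adjusted p = 0.0385 in edgeR).

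The sequences upstream of Lama5 and Lama2, the α chains with the most RNA, are shown because Lama2 was called lower and Lama5 was not called. Promoters were taken from RefSeq (GRCm38.p6, whereas the sample records name mm39 for the counts). Entries of 5 of the 9 chains were used, Lama2, Lama5, Lamb1, Lamb2 and Lamb3. That a chain is missing here does not show that RefSeq lacks its promoter. Each line gives the 250 bases upstream of the start, 5′ to 3′ on the strand of the gene, and capitals mark GC boxes (GGGCGG) and CCAAT boxes (CCAAT) on either strand.
Lama5 (chr2:180225860-180226109, minus strand): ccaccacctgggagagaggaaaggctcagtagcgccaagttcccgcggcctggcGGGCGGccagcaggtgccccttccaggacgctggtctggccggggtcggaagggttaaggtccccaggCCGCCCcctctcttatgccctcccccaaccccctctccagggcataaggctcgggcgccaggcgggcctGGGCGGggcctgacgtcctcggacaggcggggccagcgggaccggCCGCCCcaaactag
Lama2 (chr10:27616943-27617192, minus strand): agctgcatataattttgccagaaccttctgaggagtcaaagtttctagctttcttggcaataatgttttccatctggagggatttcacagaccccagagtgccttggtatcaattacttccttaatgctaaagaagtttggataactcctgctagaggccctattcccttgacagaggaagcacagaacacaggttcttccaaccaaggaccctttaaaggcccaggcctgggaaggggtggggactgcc
The Lama5 window held 4 GC boxes and 19 CG dinucleotides at a GC content of 72.4%. The Lama2 window held 0 of either at a GC content of 47.2%. Over 32851 promoters of the same length, 32.7% held a GC box, 33.8% a CCAAT box and 12.4% a TATA box (TATAAA on either strand), and the median was 6 CG dinucleotides and a GC content of 52.4%. No TATAAA was found in the windows of the 5 chains. A match describes the letters in a window and not a bound site.

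Lama3 and Lama4 had little RNA in both lines. Lama3 encodes α3, an α chain of epithelial laminins. It was at 1.46, 1.15 and 0.824 CPM for WT replicates 1 to 3 against 1.44, 0.603 and 1.42 CPM for AS replicates 1 to 3, or 31 to 78 reads, and the lines overlapped widely. Its log2 fold change of 0.0059 (SE = 0.37 and adjusted p = 0.992 in edgeR) had a 95% interval from -0.82 to 0.83, which leaves room for a change in either direction. Its sign was negative under 8 alternatives, among them RLE size factors (-0.0034) and DESeq2 (-0.0015). Counts per gene do not separate the coding transcripts of Lama3, and 197 exon bases are shared with an antisense gene, Gm29200, which had at most 2 reads in a sample. Lama4 encodes α4, an α chain of blood vessels. It was at 0.316, 0.278 and 0.325 CPM in the WT samples (13 to 16 reads) and at 0.0888, 0.175 and 0.182 CPM in the AS samples (4 to 10 reads). The lines did not overlap, but the log2 fold change of -1.01 (SE = 0.45 and adjusted p = 0.104 in edgeR) did not pass the threshold. It passed with the median of chromosome 10 removed (-1.32, adjusted p = 0.0495 in edgeR). Of the endothelial markers, Pecam1 and Cdh5 were at or below 0.276 CPM in all 6 samples and did not pass the filter on low counts. Kdr, a receptor for vascular endothelial growth factor, was lower in AS podocytes at 0.256, 0.897 and 0.607 CPM for WT replicates 1 to 3 against 0.111, 0.292 and 0.0363 CPM for AS replicates 1 to 3 (log2 fold change -1.98, adjusted p = 0.0441 in edgeR), with overlap between the lines, and its call was lost in 4 of the 6 fits without 1 sample (adjusted p = 0.0957 to 0.167 in edgeR). Ehd3 was lower as well, at 44.0 to 51.4 CPM in WT against 37.4 to 42.8 CPM in AS podocytes. The part of endothelial cells in the values of Lama4 was not tested.

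Of the β chains, Lamb1 encodes β1, which is found in laminins 111, 411 and 511, and Lamb2 encodes β2, which is found in laminins 121, 221 and 521. Lamb1 was at 923, 853 and 816 CPM for WT replicates 1 to 3 against 936, 893 and 913 CPM for AS replicates 1 to 3. Its 6 values lay within a narrow band in which the lines overlapped, with a log2 fold change of 0.081 (SE = 0.067 and adjusted p = 0.374 in edgeR) and a 95% interval from -0.070 to 0.23. Lamb2 was at 281, 252 and 242 CPM for WT replicates 1 to 3 against 303, 280.5 and 284 CPM for AS replicates 1 to 3. The highest WT sample, replicate 1, lay just above the lowest AS sample, replicate 2, and the other WT samples lay below the AS samples. The log2 fold change of Lamb2 was 0.16 (SE = 0.070 and adjusted p = 0.0913 in edgeR). It was called without WT replicate 1 (0.23, adjusted p = 0.00917 in edgeR), with scaling to library size only (0.19, adjusted p = 0.0364 in edgeR) and with the set number as a block (0.16, adjusted p = 0.0341 in edgeR).

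The upstream windows of the β chains with the most RNA are given beside each other because Lamb1 and Lamb2 kept a ratio of RNA between 3.01 and 3.30 in the 6 samples, per kb.
Lamb1 (chr12:31265043-31265292, plus strand): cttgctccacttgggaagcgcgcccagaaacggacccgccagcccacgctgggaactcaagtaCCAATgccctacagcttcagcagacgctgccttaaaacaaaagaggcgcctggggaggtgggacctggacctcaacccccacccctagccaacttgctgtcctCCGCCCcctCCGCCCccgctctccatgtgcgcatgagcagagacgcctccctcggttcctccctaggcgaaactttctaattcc
Lamb2 (chr9:108479612-108479861, plus strand): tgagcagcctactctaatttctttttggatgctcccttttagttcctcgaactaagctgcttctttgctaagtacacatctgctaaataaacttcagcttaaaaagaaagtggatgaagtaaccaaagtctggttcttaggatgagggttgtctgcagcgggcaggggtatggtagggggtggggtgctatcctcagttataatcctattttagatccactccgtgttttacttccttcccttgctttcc
The Lamb1 window held 2 GC boxes, 1 CCAAT box and 14 CG dinucleotides at a GC content of 62.0%. The Lamb2 window held none of the boxes and 3 CG dinucleotides at a GC content of 43.6%. The 2 windows of Lamb3 held 2 and 3 CG dinucleotides and none of the boxes.

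Lamb3 encodes β3, a β chain of epithelial laminins such as that of skin. It was at 0.197, 0.513 and 0.650 CPM for WT replicates 1 to 3 against 0.444, 0.389 and 0.472 CPM for AS replicates 1 to 3, or 10 to 30 reads. The AS values lay inside the WT range, and the log2 fold change was -0.050 (SE = 0.45 and adjusted p = 0.943 in edgeR), with a 95% interval from -1.07 to 0.97. Its sign was positive with limma-voom (0.12) and with the set number as a block (0.028), and in the fits without WT replicate 2, WT replicate 3 or AS replicate 2 (0.048, 0.30 and 0.019).

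Lamc1 encodes γ1, which is part of most laminins. Its CPM was 304, 236 and 210 for WT replicates 1 to 3 against 267, 239 and 262 for AS replicates 1 to 3. WT replicate 1 was the highest and WT replicate 3 the lowest of all 6, with the AS samples in between. The log2 fold change was 0.033 (SE = 0.12 and adjusted p = 0.852 in edgeR), and its 95% interval ran from -0.24 to 0.30. Without WT replicate 1 it was 0.20 and was called (adjusted p = 0.0427 in edgeR), and without WT replicate 2, WT replicate 3 or AS replicate 1 it was -0.0092, -0.080 and -0.0070. WT replicate 1 thus had the highest CPM of its line for Lama5, Lamb1, Lamb2 and Lamc1.

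Of the 9 chains, 2 were called lower and 0 higher in AS podocytes at an adjusted p under 0.05, against 40.1% of all genes tested that were called, 19.6% lower and 20.4% higher. Past a fold change of 2 as well, the same 2 were lower and 0 higher, against 6.59% and 4.59% of all genes. DESeq2 and limma-voom called the same numbers, 2 lower and 0 higher, and at an unadjusted p under 0.05 edgeR gave 1 chain that was higher, Lamb2. The CPM of the lines did not overlap in 3 of the 9 (Lama1, Lama2 and Lama4), against 52.3% of all genes tested. The median log2 fold change of the 9 chains was 0.0059, beside 0.0061 over all genes. Without WT replicate 1, 3 chains were called higher (Lama5, Lamb2 and Lamc1) and 2 lower, when 40.4% of all genes were called. The plot of the log2 fold changes under other settings shows that Lama1 and Lama2 stayed far from 0 in each of them.

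**Figure D2:**
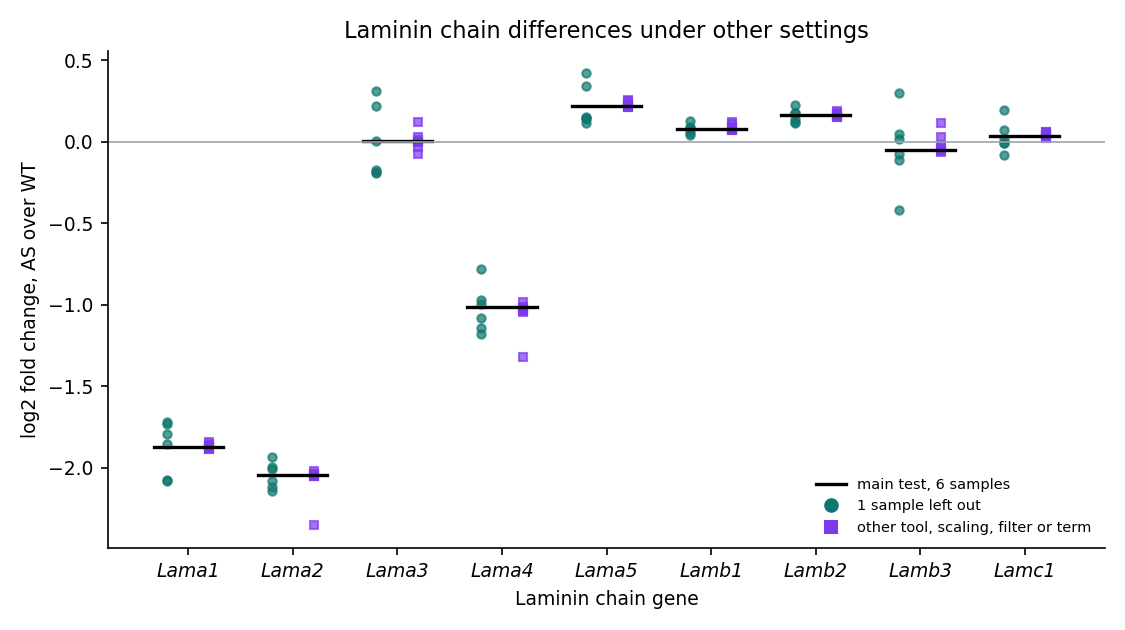
Log2 fold change of AS over WT (vertical axis) for the 9 laminin chains with all 6 samples (black bar), with 1 sample left out (circles) and with another tool, scaling, filter or term (squares). Lama1 and Lama2 remain between -2.35 and -1.72 in all of them, whereas Lama3, Lamb3 and Lamc1 have values on either side of 0.

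Lamc3, which encodes γ3, was looked at because it can take the place of γ1 in some trimers. It was at 1.81, 2.91 and 2.60 CPM for WT replicates 1 to 3 against 1.38, 1.75 and 1.16 CPM for AS replicates 1 to 3. Its log2 fold change of -0.77 (SE = 0.25 and adjusted p = 0.0347 in edgeR) passed, but not without WT replicate 2, WT replicate 3, AS replicate 1 or AS replicate 3 (adjusted p = 0.125, 0.0930, 0.0826 and 0.1198 in edgeR). Lamc3 did not overlap between the lines and, per kb, was below Lamc1 in all 6 samples.

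Within each class, the make-up of the RNA was then compared between the lines on the scale of CPM per kb. These shares are descriptions and were not tested. Among the α chains, Lama5 made up 86.1, 78.6 and 83.4% for WT replicates 1 to 3 against 95.6, 95.3 and 95.9% for AS replicates 1 to 3. Lama2 made up 10.9, 17.7 and 14.2% for WT replicates 1 to 3 against 3.45, 3.76 and 2.90% for AS replicates 1 to 3. Neither share overlapped between the lines. With the union of all exons as the length, a choice added after seeing the data, Lama2 made up 8.96 and 2.01% of α chain RNA in WT and AS podocytes. The sum of the α chains was 37.4 ± 6.97 CPM per kb in WT and 37.9 ± 5.85 CPM per kb in AS podocytes (SD, n = 3 each), a difference smaller than the spread.

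The make-up of the β chains differed by about 1 percentage point. Lamb1 made up 76.5 ± 0.272% and 75.4 ± 0.388% of β chain RNA in WT and AS podocytes, and Lamb2 23.5 ± 0.295% and 24.5 ± 0.389% (SD, n = 3 each). The ratio of Lamb1 to Lamb2 per kb was 3.20, 3.30 and 3.28 for WT replicates 1 to 3 against 3.01, 3.10 and 3.13 for AS replicates 1 to 3. The ratio was lower in every AS sample than in every WT sample, by a small step.

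**Figure D3:**
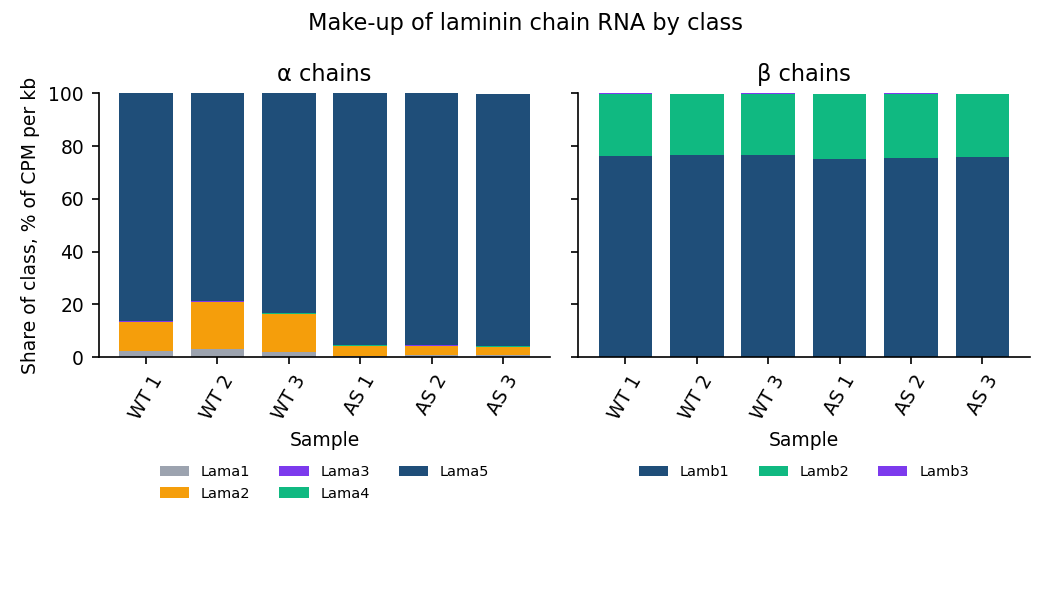
Share of each chain in the α and β chain RNA (percent of CPM per kb, stacked bars) in each of the 6 samples. Lama5 takes 82.7% of the α bars on average in WT and 95.6% in AS podocytes, whereas the β bars look alike in both lines.

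The classes were not equally abundant. The β chains summed to 195 ± 13.0 CPM per kb in WT and 209 ± 5.89 CPM per kb in AS podocytes (SD, n = 3 each), more than the α chains. They were 5.29 ± 0.593 times the α chain RNA in WT and 5.62 ± 0.828 times in AS samples, and Lamb1 alone was 4.62 ± 0.571 and 4.71 ± 0.181 times Lamc1 (SD, n = 3 each), or 3.08 ± 0.380 and 3.13 ± 0.121 times it with the coding length in place of the transcript length. The ratio of Lama5 to Lamc1 was 0.980, 0.857 and 0.999 for WT replicates 1 to 3 against 1.12, 0.946 and 1.16 for AS replicates 1 to 3. The lines overlapped, and the ratio rested on the length used, since the longest transcript of Lamc1 is much longer than its coding part (7622 against 4821 bases). With the coding length it was 0.610 ± 0.0496 and 0.693 ± 0.0726, below 1 in all 6 samples, and with the union of exons 1.03 ± 0.0833 and 1.17 ± 0.122 (SD, n = 3 each), so whether α5 or γ1 had more RNA could not be settled. Lamb2 alone was 1.42 ± 0.157 times Lamc1 in WT and 1.53 ± 0.0607 times in AS podocytes with the transcript length, but 0.935 ± 0.104 and 1.01 ± 0.0401 times with the coding length (SD, n = 3 each).

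For each laminin trimer considered, the scarcest of its 3 chain RNAs is the most that the RNA could supply, on the assumption that each chain is translated alike. Whether the chains were made, joined or secreted was not measured in these libraries. The α5 trimers with γ1, laminins 511 and 521, had by far the highest value, with 39.1, 26.6 and 27.5 CPM per kb in the WT samples and 35.1, 29.7 and 34.4 CPM per kb in the AS samples. The scarcest chain was Lama5 in the 3 WT samples and in AS replicate 2, and Lamc1 in AS replicates 1 and 3. With the coding length it was Lama5 in all 6 samples, and with the union of exons Lamc1 in all but WT replicate 2, so the scarcest chain of these trimers depended on the length. The lines overlapped, with means of 31.1 ± 6.99 and 33.0 ± 2.93 CPM per kb (SD, n = 3 each). Since Lama5 and Lamc1 are shared between laminins 511 and 521, the RNA does not tell how α5 is split between β1 and β2, and per kb of transcript the RNA of either β chain exceeded that of Lamc1 in all 6 samples. With the coding length that held for Lamb1, while Lamb2 was above Lamc1 in 3 of the 6 samples.

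Laminins 211 and 221 came next and were limited by Lama2, at 5.21 ± 0.692 CPM per kb in WT and 1.26 ± 0.136 CPM per kb in AS podocytes (SD, n = 3 each), or 0.242 times the WT level. With the union of all exons as the length the means were 3.07 and 0.744 CPM per kb. Laminins 111 and 121 were limited by Lama1, at 0.967 ± 0.257 and 0.263 ± 0.0663 CPM per kb (SD, n = 3 each), or 0.272 times. The RNA for these 4 trimers thus did not overlap between the lines. Laminins 213 and 523 were limited by Lamc3, at 0.416 ± 0.0959 and 0.244 ± 0.0507 CPM per kb (SD, n = 3 each). The trimers with α3 and α4 had the least RNA. Laminins 311 and 321 were limited by Lama3, at 0.109 ± 0.0302 and 0.109 ± 0.0453 CPM per kb (SD, n = 3 each). Laminins 411, 421 and 423 were limited by Lama4, at 0.0506 ± 0.00415 and 0.0246 ± 0.00857 CPM per kb (SD, n = 3 each), or 0.0254 and 0.0123 CPM per kb over the union of exons.

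**Figure D4:**
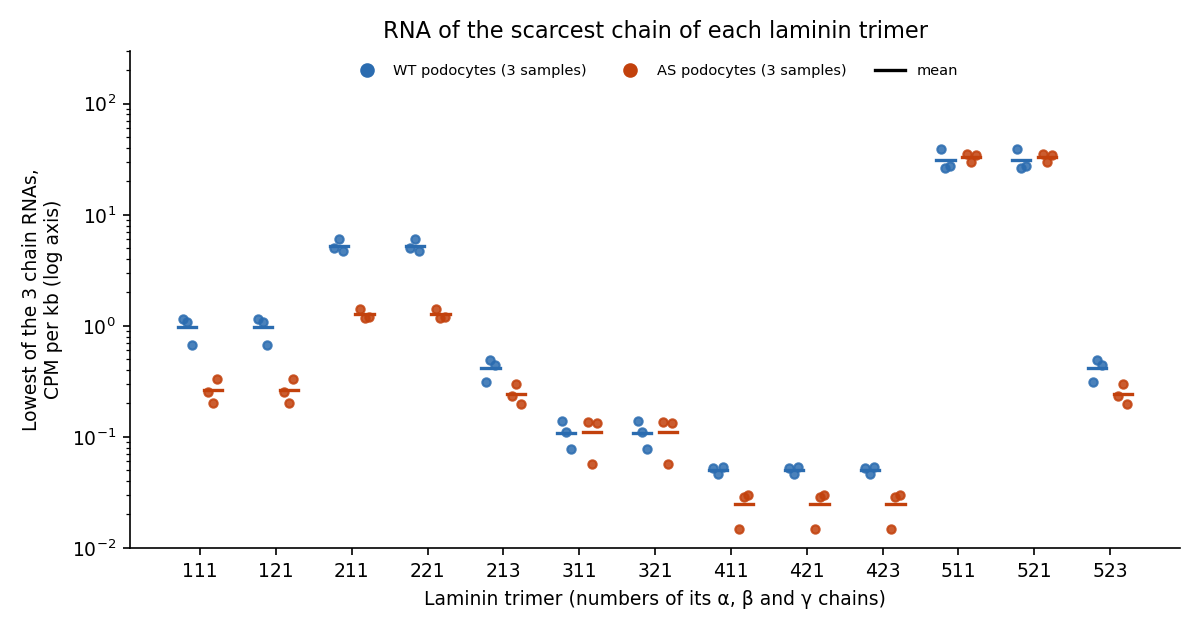
RNA of the scarcest of the 3 chains (CPM per kb, log axis) for laminin trimers, named by the numbers of their α, β and γ chains, in each of 3 WT (blue) and 3 AS (orange) samples with a bar at the mean. Laminins 511 and 521 stand at 26.6 to 39.1 CPM per kb in both lines, whereas all AS points are below all WT points for trimers limited by Lama1, Lama2, Lama4 or Lamc3.

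The proteins that link laminin to the rest of the basement membrane were measured in the same fit. Of 5 such genes, 2 were higher and 2 lower in AS podocytes, against 20.4% and 19.6% of all genes tested, with a median log2 fold change of 0.028. Hspg2, which encodes perlecan, a heparan sulfate proteoglycan, was at 1430, 1243 and 1288 CPM for WT replicates 1 to 3 against 2545, 1585 and 2093 CPM for AS replicates 1 to 3. Every AS sample lay above every WT sample, though AS replicate 2 was far below the other AS samples, and the log2 fold change was 0.65 (SE = 0.15 and adjusted p = 0.00654 in edgeR). Agrn, which encodes agrin, the main heparan sulfate proteoglycan of the GBM and a binder of laminin γ1, was at 318 ± 6.33 and 390 ± 29.2 CPM (SD, n = 3 each), which on the log2 scale was a difference of 0.30 (SE = 0.066 and adjusted p = 0.00634 in edgeR). Ntn4 encodes netrin 4, which binds laminin γ1 and can disrupt the laminin network. It was at 489, 446 and 438 CPM for WT replicates 1 to 3 against 243, 243 and 244 CPM for AS replicates 1 to 3, a log2 fold change of -0.91 (SE = 0.061 and adjusted p = 5.06e-06 in edgeR). Nidogens bridge laminin γ1 and type IV collagen. Nid1 was at 750 ± 43.2 and 581 ± 42.4 CPM (SD, n = 3 each), which on the log2 scale was a difference of -0.37 (adjusted p = 0.00381 in edgeR). Nid2, at 407 ± 84.3 and 415 ± 44.2 CPM (SD, n = 3 each), had a log2 fold change of 0.028 (adjusted p = 0.896 in edgeR), which turned to -0.12 without WT replicate 3 and -0.059 without AS replicate 1.

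Of 8 laminin receptor genes, 6 were lower and 0 higher in AS podocytes, against 19.6% of all genes tested that were lower, and the median log2 fold change was -0.44. DESeq2 and limma-voom also gave 6 lower and 0 higher, and no receptor was higher at an unadjusted p under 0.05 in edgeR. Bcam encodes the Lutheran glycoprotein, a receptor for laminin α5. Its CPM was 136, 123 and 119 for WT replicates 1 to 3 against 48.1, 44.0 and 42.6 for AS replicates 1 to 3, a log2 fold change of -1.49 (SE = 0.071 and adjusted p = 5.09e-07 in edgeR). Bcam was thus 2.81-fold lower in AS podocytes, whereas Lama5, which encodes its ligand, was not called and had a log2 fold change of 0.22. Dag1 encodes dystroglycan, a receptor for laminins with α1 or α2. It was at 988, 776 and 724 CPM for WT replicates 1 to 3 against 604, 495 and 533 CPM for AS replicates 1 to 3, with no overlap and a log2 fold change of -0.61 (SE = 0.12 and adjusted p = 0.00306 in edgeR).

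The laminin-binding integrins pair an α subunit with β1 or β4. Itga3 encodes α3 of integrin α3β1, the main laminin receptor of podocytes, and was at 664 ± 2.20 CPM in WT against 458 ± 37.8 CPM in AS podocytes (SD, n = 3 each), which on the log2 scale was a difference of -0.54 (SE = 0.071 and adjusted p = 0.000326 in edgeR). Cd151, a tetraspanin that binds this integrin, was at 461 ± 4.86 and 373 ± 17.9 CPM (SD, n = 3 each), which on the log2 scale was a difference of -0.30 (adjusted p = 0.00291 in edgeR). Itgb1, which encodes the β1 partner, was at 3567 ± 420 and 3839 ± 124 CPM (SD, n = 3 each). Its log2 fold change of 0.11 (adjusted p = 0.406 in edgeR) was within the spread, and was -0.20 with the median of chromosome 8 removed. Itga6 was lower, at 86.4 ± 11.9 and 67.7 ± 3.48 CPM (SD, n = 3 each) and by -0.35 on the log2 scale (adjusted p = 0.0156 in edgeR), but did not pass without WT replicate 2, WT replicate 3 or AS replicate 3 (adjusted p = 0.0583, 0.0551 and 0.0692 in edgeR). Itgb4, at 6.99 ± 1.91 and 4.27 ± 0.568 CPM (SD, n = 3 each), had a log2 fold change of -0.71 (adjusted p = 0.0241 in edgeR). It did not pass without WT replicate 1, WT replicate 3, AS replicate 1 or AS replicate 2 (adjusted p = 0.0504, 0.0822, 0.0701 and 0.0757 in edgeR). Itga7 was not called (0.34, adjusted p = 0.327 in edgeR). With 1 sample left out, between 4 and 5 of the 8 receptors were called lower and 0 higher. In these fits 30.7 to 40.4% of all genes tested were called in either direction, against 40.1% with all 6 samples.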

How the data were processed

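RNA was measured by mRNA sequencing in 3 WT and 3 AS samples of immortalized podocytes. The authors deposited 1 table of raw counts per gene, and the submitters' processing notes name FastQC, Trim Galore, STAR, edgeR and mm39, without versions; the sources used here do not give the counting tool, the annotation or the strand setting, so reads of overlapping antisense genes cannot be told apart. Of 57132 identifiers, 51880 matched a symbol of GENCODE M21, which is built on another assembly (GRCm38). Names, chromosomes, gene types, the gene lengths and the exon overlaps were taken from it. The members and the gene lists were chosen with earlier results of these data known.

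Genes were kept by edgeR's filterByExpr (minimum count 10, minimum total 15), which left 16263, and 28476 had no count. Libraries were scaled by TMM, and AS was compared with WT by the quasi-likelihood test of edgeR 4.0.16 (R 4.3.3), with Benjamini-Hochberg adjustment over all genes tested and a threshold of 0.05. Standard errors were derived from the F statistic, and 95% intervals from these. Levels per kb divide CPM by the longest coding transcript, and a trimer takes the lowest of its 3 chains. The scripts were tested on simulated data. Exact permutation of 3 against 3 samples cannot give a p below 0.10 and was not used. A floor of 3 counts was 0.0545 to 0.0666 CPM per library and covers counting error only. All sample pairs differed by more than counting noise.

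The genes named were the laminin chains, their partners and receptors, and from each other list up to 3 called genes with the largest differences, besides defining markers, and some results of these lists and of other chains and trimers are not reported here. Cd2ap, Kdr, Acta2, Col4a5, Pax8, Cldn1, Gata3, Itga8 and Lrp2 were named after their values were seen, as were marker genes with little or no count. Alternatives were RLE scaling, library size only, DESeq2 1.42.0, limma-voom (limma 3.58.1), no filter, a mean CPM of at least 1, the set number as a block, each sample left out, chromosome medians removed, coding length and, added after seeing the data, exon union length, ratios of chains with each length, marker sums without the most abundant marker and the list counts under each setting.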

Additional observations from a re-analysis of the deposited data

How the results depend on the processing

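Lama1 and Lama2 stayed lower and called in each alternative run, with log2 fold changes from -2.08 to -1.72 and from -2.35 to -1.94, and so did the lack of a call for Lamb1. Of 124 values of the 9 chains, 101 kept direction and side of the threshold, 7 passed it anew and 16 changed sign, and of 501 values of 36 other named genes, 464 kept both, 34 no longer passed and 3 changed sign. The cause of the changes listed here was not tested. Lama3 was -0.0034 with RLE, -0.0015 with DESeq2, -0.073 with limma-voom and -0.0017 at a minimum mean CPM of 1, and Lamb3 was 0.12 with limma-voom. Lama4 passed with chromosome medians removed (-1.32), Lama5 without a filter on low counts (0.22) and Lamb2 with library size only (0.19). With that minimum Lama4 and Lamb3 could not be tested. With 1 sample left out, log2 fold changes ran from -0.19 to 0.31 for Lama3, -0.42 to 0.30 for Lamb3, -0.080 to 0.20 for Lamc1, 0.12 to 0.42 for Lama5 and 0.12 to 0.23 for Lamb2. Lama5, Lamb2 and Lamc1 passed the threshold without WT replicate 1, where 5 of the 9 chains were called, against 2 in each other such fit. Of all genes, 40.4% were called without WT replicate 1 and 30.7 to 33.3% in the other fits without 1 sample. In these fits 1 line has 2 samples and the spread is pooled. Nid2 ranged from -0.12 to 0.18, and Itgb1 was -0.20 with chromosome medians removed.

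The set number in the labels does not state a shared culture, so it was not taken as a pairing. Same-numbered samples deviated together with r = 0.284, 0.160 and 0.0801, and differently numbered ones with r from -0.231 to 0.139. As each line was centred on the mean of its own few samples, these values cannot decide whether the sets were paired. WT replicate 3 correlated best with AS replicate 2 (r = 0.139). With the number as a block, 7066 genes were called instead of 6517, Lamb2 passed the threshold (0.16), Lama3 was -0.033, Lamb3 0.028 and Col4a6 no longer passed (-0.36).

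With coding length in place of transcript length, the scarcest chain was at 0.0562 CPM per kb for laminin 421 in WT and 36.97 for laminins 511 and 521 in AS podocytes, and the ratios to Lamc1 fell by more than 1.5-fold, as given with the ratios. With the union of exons, Lama5 made up 88.0 and 97.0%, Lama2 8.96 and 2.01%, Lamb1 67.2 and 65.9% and Lamb2 32.7 and 34.0% of their class in WT and AS podocytes, and the scarcest chain was at 3.07 and 0.744 CPM per kb for laminin 221 and at 0.0254 and 0.0123 for laminin 421. Depth limits Lama3, Lama4 and Lamb3, which had 4 to 78 reads per sample.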

Other observations

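Dystroglycan binds laminin through a sugar chain, and 9 of 10 genes of the enzymes that build it could be tested. Of these, 4 were higher and 2 lower in AS podocytes, against 20.4% and 19.6% of all genes tested. Pomk, a kinase that acts on the core of the chain, was at 29.1 ± 0.723 and 43.0 ± 0.428 CPM in WT and AS podocytes (adjusted p = 7.28e-05 in edgeR), and Pomgnt1, which adds a sugar to the core, at 73.6 ± 2.05 and 48.9 ± 1.04 CPM (SD, n = 3 each, adjusted p = 3.31e-05 in edgeR).

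Of 6 genes of anchoring collagens and proteases that cut laminin, 2 were higher and 1 lower, against 20.4% and 19.6% of all genes tested. Mmp14, a membrane-bound metalloprotease, had a log2 fold change of 0.63 and Bmp1, a protease that processes matrix proteins, one of -0.29 (adjusted p = 6.31e-05 and 0.00621 in edgeR). Mmp2, at 0.35, did not pass without WT replicate 2, WT replicate 3 or AS replicate 1 (adjusted p = 0.0509, 0.0561 and 0.0620 in edgeR) or with chromosome medians removed (0.041). Of the 6 type IV collagen chains, 3 were lower and 1 higher, against 19.6% and 20.4% of all genes tested. Col4a5, which encodes the collagen chain that joins those of Col4a3 and Col4a4, was the higher one, at 0.31 (adjusted p = 0.00603 in edgeR) and with no overlap between the lines. Besides Col4a3 the lower ones were Col4a4 (-0.42, adjusted p = 0.00390 in edgeR) and Col4a6 (-0.36, adjusted p = 0.0463 in edgeR), of which Col4a6 passed in 1 of the 6 fits without 1 sample, that without AS replicate 1.

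Of markers of other cell types, 2 of 2 endothelial ones tested, Kdr and Ehd3, were lower, against 19.6% of all genes tested, of which Ehd3 (-0.26, adjusted p = 0.0288 in edgeR) did not pass without WT replicate 2, WT replicate 3, AS replicate 2 or AS replicate 3 (adjusted p = 0.0885, 0.0960, 0.0988 and 0.0639 in edgeR), and the 6 summed to 44.7 to 52.4 CPM in WT and 38.0 to 43.0 CPM in AS samples. Nearly all of that sum was Ehd3, and the other 5 summed to 0.730 to 1.35 CPM in WT and 0.178 to 0.603 CPM in AS samples. Of 4 parietal epithelial markers tested, Pax2 and Krt18 were lower, against 19.6% of all genes tested. Krt18 had only 13 to 16 reads in the WT and 0 to 3 in the AS samples. The 2 others were not called, Pax8 at -0.16 and Cldn1 at 0.24. All 5 parietal markers summed to 380 to 467 CPM in WT and 326 to 349 CPM in AS samples. Without Pax8, the most abundant, the other 4 summed to 186 to 195 CPM in WT and 136 to 140 CPM in AS samples. Of 2 tubular markers tested, Cdh16 was higher (1.49, adjusted p = 9.34e-05 in edgeR), against 20.4% of all genes tested, and Lrp2 was not called (-0.11). Umod and Aqp2 had no count in the 6 samples. The 5 tubular markers summed to 322 to 382 CPM in WT and 377 to 526 CPM in AS samples. Without Lrp2, the most abundant, the other 4 summed to 52.0 to 86.9 CPM in WT and 181 to 220 CPM in AS samples. None of 3 stratified epithelial markers could be tested, and 0 of 2 leukocyte markers tested were called in edgeR, with 0 at an unadjusted p under 0.05. Lmx1b, a podocyte transcription factor, had a log2 fold change of 3.40 (adjusted p = 3.73e-06 in edgeR), and Podxl one of -0.97 (adjusted p = 0.0146 in edgeR), which did not pass without AS replicate 3 (adjusted p = 0.0651 in edgeR). The part of such cells in the values of the laminin chains was not tested.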
